A study of Mus musculus with 7 samples.

Results

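Complement is a cascade of blood and tissue proteins that tags particles for uptake and can form pores in membranes. C1q, a bouquet-shaped protein of A, B and C chains with collagen-like stems and globular heads, starts the classical pathway and is made largely by tissue macrophages. The cascade converges on C3, whose fragment C3a signals through C3ar1, and regulators such as the C1 inhibitor (Serping1), Cd55 and Cd59a restrain it. Resident macrophages of the gut muscle layer, the muscularis macrophages, are known to express the C1q genes strongly. The genes described here are 9 members of this system: C1qa, C1qb, C1qc, C3, properdin (Cfp), Serping1, Cd55, Cd59a and C3ar1. They were chosen by name, and all 9 were listed among the 17209 genes of the deposited table.

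The series compared small intestinal muscularis macrophages of C57BL6/J mice, isolated from the peeled muscle layer by sorting for GFP at the Cx3cr1 locus. There were 4 libraries taken 24 h after sham surgery (Sham 1 to 4) and 3 taken 24 h after pMCAO surgery (pMCAO 1 to 3), which the series title calls stroke. All groups shared the strain label and the sorting reporter, and no age or sex is given in the sources used here. The label of pMCAO 3 names a pool, and for the others nothing says whether a library came from 1 animal, so p-values measure the spread between these libraries.

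Library totals ran from 12685941 counts (pMCAO 1) to 34432716 (Sham 4). Of 16 pan-macrophage markers fixed for the check of cell type, all 16 were measured, none was at 0 in a library, and their summed level lay between 21736 and 28674 CPM for sham and between 19446 and 22430 CPM for pMCAO. CPM here are counts per 1000000 of the library after TMM scaling, and values are mean ± SD with n = 4 for sham and n = 3 for pMCAO. The sum of fibroblast markers (9 of 9 measured, none at 0) was 59.0 to 170.3 CPM across the sham group and 475, 107 and 538 CPM in pMCAO 1, 2 and 3. The summed blood endothelial markers (9 of 9 measured, none at 0) were 128 to 334 CPM in the sham group and 378 to 514 CPM in the pMCAO group. In bulk RNA, fewer cells of a type and less RNA per cell cannot be told apart.

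C1q and properdin had lower means after pMCAO, and C3 and the regulators higher ones, but none passed the test over all genes. The 3 C1q chains and Cfp were lower in every pMCAO library than in any sham library, by 1.71-fold to 1.95-fold. Serping1 was higher in every pMCAO library, by 4.07-fold, while C3, Cd55 and Cd59a had higher means with libraries that overlapped between groups, and C3ar1 was nearly level. By the edgeR quasi-likelihood test with Benjamini-Hochberg adjustment, 0 of the 9 genes passed an adjusted p of 0.05, while 0.0988% of all genes did. At an unadjusted p under 0.05 there were 8 of the 9 against 13.4% of all genes: 4 were lower (6.47% of all genes) and 4 higher (6.97%). DESeq2 called 6 of them (3.07% of the 15512 genes that kept an adjusted p after its own filter), namely the C1q genes, Cfp, C3 and Serping1. Of these, limma-voom called 0 (0.203%), and limma-voom with sample quality weights called all but C3 (5 genes, 4.75%). Groups without overlap were found for 4 genes on the lower side, against 6.58% of all genes, and for 1 on the higher side, against 5.99% (12.6% in either direction). These counts describe genes chosen with earlier results known.

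**Figure D1:**
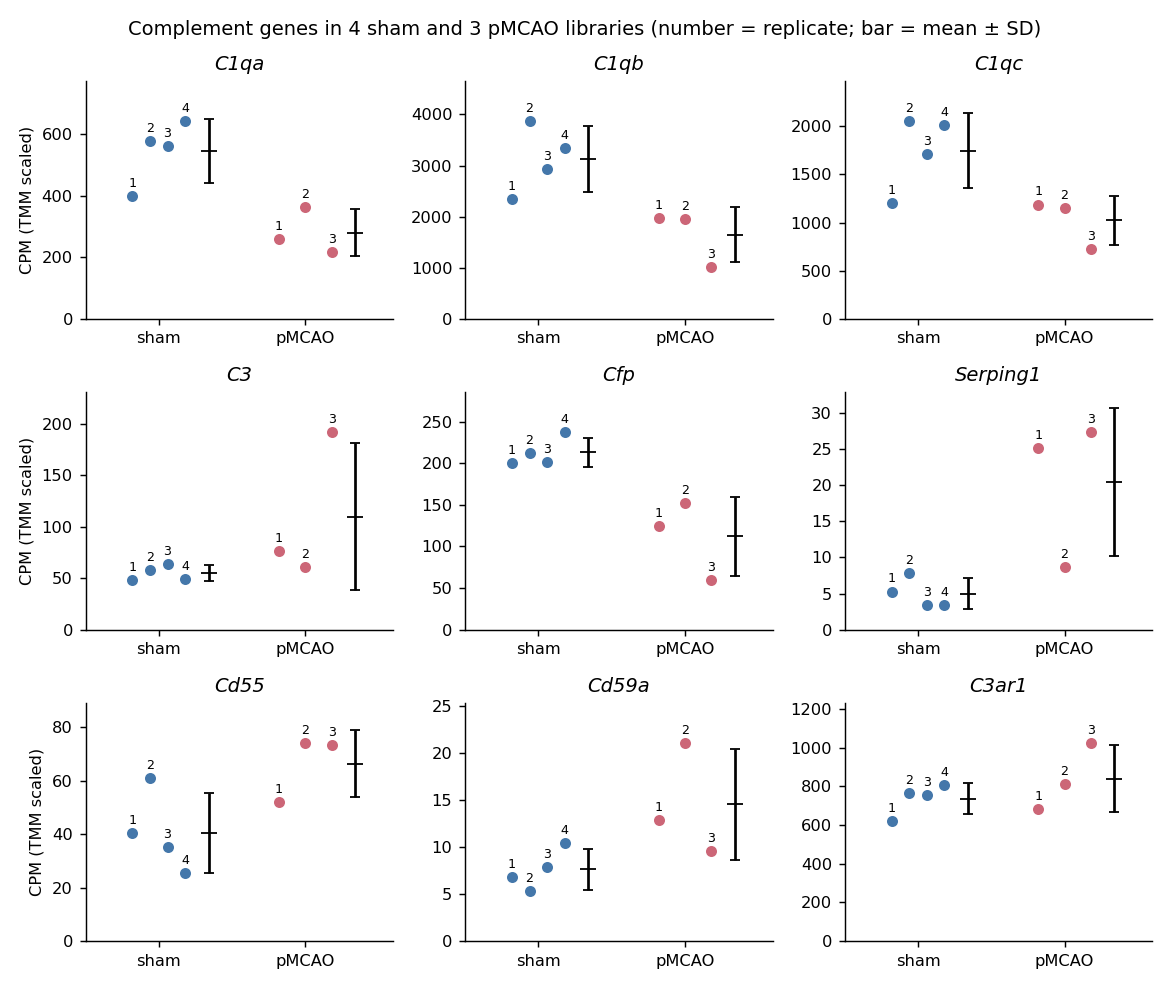
Level of each complement gene in CPM after TMM scaling (vertical axis from 0) in the 4 sham and 3 pMCAO libraries. Points are libraries with their replicate number and bars are mean ± SD. C1qa, C1qb, C1qc and Cfp lie lower in all pMCAO libraries, Serping1 lies higher in all, and the C3 mean after pMCAO is carried by pMCAO 3 at 192 CPM.

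The C1q genes lie side by side on the minus strand of chromosome 4 (GRCm38): C1qb at 136880129 to 136886187, C1qc at 136889804 to 136893065 and C1qa at 136895917 to 136898803. The whole cluster spans 18675 bases, holds no other annotated gene, and each of these genes has 3 exons in the merged annotation. The bases just before the start sites of C1qb and C1qc are shown because these neighbours were lower together, and those before Cfp, on chromosome X, because it was lower in the same libraries. Sequences are from RefSeq (GRCm38.p6), whose table held 7 of the 9 genes, C1qa and Serping1 not among them. The searched window of each gene is the 250 bases before its RefSeq start. Those printed are read 5′ to 3′ on the minus strand. For C1qc the RefSeq start (136892914) lies 151 bases inside the gene as placed above, so only the 99 bases of its window outside the gene are printed. The RefSeq start of Cfp equals the placed one, and that of C1qb lies at 136886200, just outside it. Capitals mark a match to any of 5 motifs searched on both strands: the PU.1-type ETS site GAGGAAG, the interferon element core (GAAA, any 2 bases, GAAA), the glucocorticoid palindrome core ACANNNTGT, the GAS core TTCNNNGAA and the TATA box TATAAA.
C1qb, chr4:136886201-136886450: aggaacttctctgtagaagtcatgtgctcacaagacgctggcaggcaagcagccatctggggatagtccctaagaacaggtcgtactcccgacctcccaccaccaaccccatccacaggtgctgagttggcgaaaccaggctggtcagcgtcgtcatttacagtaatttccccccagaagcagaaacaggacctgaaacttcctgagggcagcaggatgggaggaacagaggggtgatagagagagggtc
C1qc, chr4:136893066-136893164: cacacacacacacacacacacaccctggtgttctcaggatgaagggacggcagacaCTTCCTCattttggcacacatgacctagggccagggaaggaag
Cfp, chrX:20931556-20931805: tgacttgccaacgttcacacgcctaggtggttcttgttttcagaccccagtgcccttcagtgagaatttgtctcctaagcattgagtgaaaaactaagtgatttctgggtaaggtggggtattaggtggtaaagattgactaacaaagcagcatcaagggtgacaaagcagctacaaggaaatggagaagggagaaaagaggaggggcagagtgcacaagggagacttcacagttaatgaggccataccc
The only match in these windows was in C1qc, a PU.1-type site on the opposite strand that begins 194 bases before the RefSeq start, or 43 bases before the gene as placed above, and overlaps no other match. Of 32851 RefSeq windows of the same length, 10.6% held this motif, 2.98% the interferon element core, 5.84% the glucocorticoid core, 7.02% the GAS core and 12.4% the TATA box. C1qb and Cfp held none of these letter strings in these windows. Of the windows not printed, that of Cd59a held 1 interferon element core and that of C3ar1 held 1 TATA box. Those of Cd55 and C3 held none.

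C1qb encodes the B chain and was the most abundant of the 9 genes per length. Its level was 2345, 3879, 2939.5 and 3335 CPM in Sham 1 to 4 and 1964, 1953 and 1021 CPM in pMCAO 1 to 3. All pMCAO libraries were below all sham libraries, with pMCAO 3 far below the others and Sham 1 nearest to the pMCAO group. The means were 3125 ± 647 and 1646 ± 542 CPM, a log2 change of -0.92 (SE 0.25, adjusted p = 0.146 by edgeR).

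C1qa, the A chain, was at 399.5, 578, 561 and 644 CPM in Sham 1 to 4 and at 257, 364 and 215 CPM in pMCAO 1 to 3. Again the groups did not overlap, and Sham 1 was the lowest sham library. The means of 546 ± 104 and 279 ± 76.9 CPM gave the smallest adjusted p of the C1q genes (log2 change -0.97, SE 0.22, adjusted p = 0.0952 by edgeR). C1qc, the C chain, was at 1206, 2059.7, 1713 and 2015 CPM in Sham 1 to 4 and at 1187, 1147 and 729 CPM in pMCAO 1 to 3. The gap between Sham 1 and pMCAO 1 was small here, although the groups still did not overlap. The log2 change was -0.78 (SE 0.23, adjusted p = 0.186 by edgeR) from means of 1748 ± 393 and 1021 ± 254 CPM. The authors' deposited table gives log2 fold changes of -1.30, -1.46 and -1.16 for C1qa, C1qb and C1qc, with an FDR of 0.0672, 0.105 and 0.135. An FDR under 0.05 was reached by 0.0814% of genes (14) in the authors' deposited table, and 0 of the 9 genes were among them.

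The nearest listed genes outside the C1q cluster did not pass the test either. Zbtb40, a zinc finger gene beyond C1qa, was at 28.9 ± 11.5 and 23.4 ± 6.01 CPM (log2 change -0.30, SE 0.30). Ephb2, an ephrin receptor gene beyond C1qb, was low, at 0.585 ± 0.191 and 1.26 ± 1.81 CPM.

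The proportions among the chains were similar in both groups while their sum was lower after pMCAO. Together the C1q genes made up 0.400%, 0.676%, 0.548% and 0.633% of all counts in Sham 1 to 4 and 0.314%, 0.339% and 0.187% in pMCAO 1 to 3. Scaled by exon length, C1qb made up 66.8% ± 1.93 of the C1q sum in sham libraries and 64.9% ± 3.08 after pMCAO. C1qa made up 12.3% ± 1.12 and 11.9% ± 2.30, and C1qc 20.96% ± 1.03 and 23.2% ± 1.56. For C1qa and C1qb the groups differed by less than the spread between libraries. The C1qc share spanned 19.7% to 22.1% in the sham group against 21.7% to 24.8% in the other, so its ranges overlapped too. Within every library the order was C1qb, C1qc, C1qa.

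**Figure D2:**
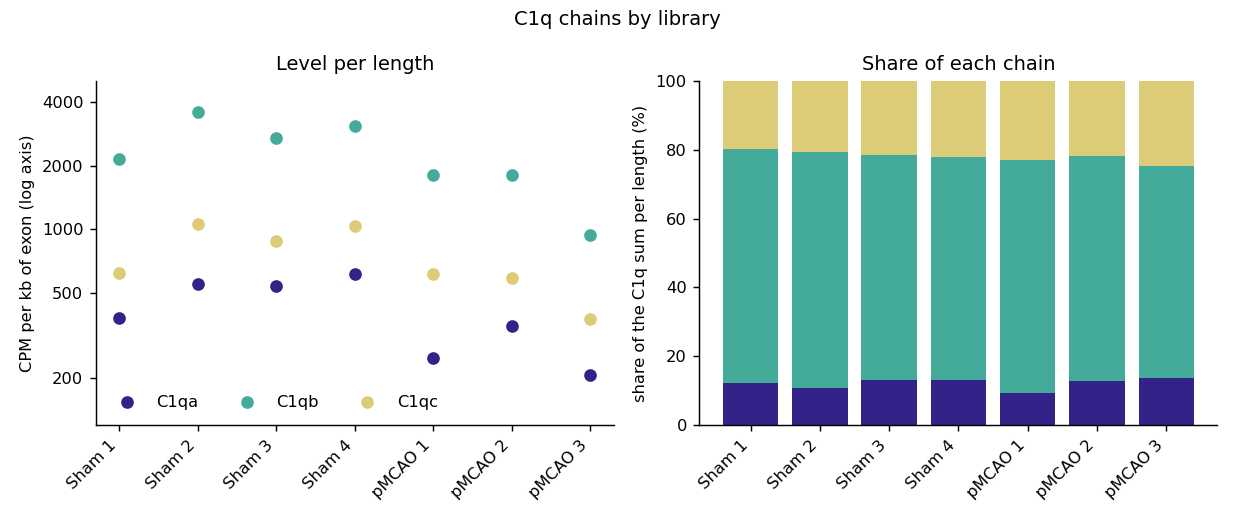
C1q chains in each library. Left, CPM per kb of exon on a log axis, one point per chain. Right, share of each chain in the C1q sum per length in percent. The levels are lower in the pMCAO libraries, while C1qb holds 61.6% to 68.7% of the sum in all libraries.

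The C1q genes were then set against macrophage markers. Of the 16 pan-macrophage markers, which do not include C1q, 14 had lower means after pMCAO, with a median log2 change of -0.37 against -0.02 over all genes, and 0 passed the test. The C1q sum was 18.2%, 22.7%, 20.4% and 22.9% of the summed marker level in Sham 1 to 4 and 15.5%, 15.4% and 10.1% in pMCAO 1 to 3. The groups thus did not overlap on this scale. Lyz2 (9898 ± 1287 and 7607 ± 2535 CPM) and Mrc1 (5235 ± 763 and 5389 ± 1508 CPM) made up most of the summed marker level. When libraries were scaled on the pan-macrophage markers, the log2 changes were -0.62 (SE 0.24), -0.59 (SE 0.26) and -0.42 (SE 0.24) for C1qa, C1qb and C1qc, with the median of all genes at 0.33. Their adjusted p on that scale were 0.199, 0.245 and 0.370 by edgeR, and the unadjusted p of C1qc was 0.101. Some single markers had log2 changes near that of C1qc: Fcgr1, the high-affinity IgG receptor, was at -0.77 (SE 0.21) and Aif1, which encodes IBA1, at -0.72 (SE 0.25) without overlap between groups. Laptm5 was at -0.63 (SE 0.24) and Tyrobp at -0.61 (SE 0.28). Mertk, an uptake receptor for dying cells, was at 0.54 (SE 0.21). Cx3cr1, the locus of the sorting reporter, was at 256 ± 37.5 and 175 ± 43.3 CPM (log2 change -0.55, adjusted p = 0.256 by edgeR).

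The genes of at least 5 CPM whose profile over the 7 libraries lay nearest to the mean C1q profile were Pilrb2, Cst3, Slc35a4, Sgta and Hexa. The measure was the root mean square difference of centred log2 profiles (0.5 CPM added), which was 0.05 for Pilrb2, 0.10 for Cst3, 0.10 for Slc35a4, 0.11 for Sgta and 0.11 for Hexa. The C1q genes themselves lay 0.13 (C1qa), 0.11 (C1qb) and 0.09 (C1qc) from their mean. Pilrb2 encodes a paired immunoglobulin-like receptor with a close paralog, so its counts are uncertain, and it was at 63.9 ± 14 and 33.96 ± 10.3 CPM. Cst3, the protease inhibitor cystatin C, was at 1867 ± 418 and 1092 ± 377 CPM, and Hexa, a lysosomal hexosaminidase subunit, at 267 ± 62.1 and 144 ± 52.1 CPM. These genes were selected for likeness, so their lower means are a description.

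Properdin, encoded by Cfp on chromosome X (20925454 to 20931555), stabilises the C3 convertase of the alternative pathway and is made by leukocytes. Its level was 201, 213, 202 and 238 CPM in Sham 1 to 4 and 124, 153 and 59.9 CPM in pMCAO 1 to 3. The sham libraries lay close together, all pMCAO libraries were below them, and pMCAO 3 was the lowest, as for the C1q genes. The means were 213 ± 17.3 and 112 ± 47.5 CPM (log2 change -0.93, SE 0.25, adjusted p = 0.152 by edgeR). Relative to the summed pan-macrophage markers Cfp lay between 0.742% and 0.923% in the sham group and between 0.308% and 0.681% in the pMCAO group, again without overlap. Monocytes and neutrophils can also make properdin. Their marker sums overlapped between the groups, at 528 to 1346 CPM for sham and 559 to 1013 CPM for pMCAO over 4 of 4 monocyte markers, none at 0. For neutrophils, with 3 of 4 markers measured and Retnlg at 0 in at least 1 library, they were 0.344 to 58.1 CPM and 1.12 to 28.2 CPM. Without pMCAO 3 the log2 change of Cfp was -0.62 (SE 0.17, adjusted p = 0.249), and over all settings its adjusted p ran from 0.0186 to 0.847. The authors' deposited table gives -1.35 with an FDR of 0.146.

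C3 is the central protein of the cascade, and many cell types, fibroblasts and epithelia included, can make it. The gene lies on chromosome 17 at 57203970 to 57228136, and the microRNA gene Mir6978 lies within it without sharing an exon. C3 was at 48.3, 57.9, 64.3 and 49.2 CPM in Sham 1 to 4 and at 76.7, 61.0 and 192 CPM in pMCAO 1 to 3. The library pMCAO 3 stood apart, while pMCAO 2 lay within the sham range. The summed epithelial markers (5 of 5 measured, none at 0) were 13.3 to 43.8 CPM for sham and 20.8 to 41.7 CPM for pMCAO, with pMCAO 3 at 22.5 CPM. The means were 54.9 ± 7.58 and 110.1 ± 71.8 CPM, a log2 change of 1.00 (SE 0.32, adjusted p = 0.207 by edgeR). Without pMCAO 3 the log2 change was 0.33 (SE 0.21, adjusted p = 0.618), and over all settings the adjusted p of C3 ran from 0.0496 to 0.881. The authors' deposited table gives 1.11 with an FDR of 0.235.

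The library that was highest in C3 was the lowest in each C1q gene and in Cfp. Per exon length, C3 was at 0.297%, 0.217%, 0.303% and 0.202% of the C1q sum in Sham 1 to 4, at 0.559% and 0.433% in pMCAO 1 and 2, and at 2.46% in pMCAO 3. This ratio was higher in every pMCAO library than in any sham library. In it pMCAO 1 and pMCAO 2 were much nearer to the sham libraries than pMCAO 3 was. The C1q sum that it is set against was itself lower in every pMCAO library, and the C3 level of pMCAO 2 lay within the sham range.

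The genes nearest to the C3 profile were Cped1 (root mean square difference 0.11), Gm37755 (0.17), Cxadr (0.23), Gm26814 (0.24) and Gcnt1 (0.24). In each of these 5 genes pMCAO 3 was the highest library, as in C3. They were selected for likeness to C3, so this is a description. Cxadr, the coxsackievirus and adenovirus receptor, was at 20.9 CPM in pMCAO 3 and at 4.11 to 7.25 CPM in the others. Gcnt1, a glycosyltransferase of O-glycans, was at 263 CPM in pMCAO 3, 172 in pMCAO 1 and 133 in pMCAO 2, against 96.9 to 112 CPM in sham libraries.

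Serping1 encodes the C1 inhibitor, which inactivates the proteases that C1q carries. The gene lies on chromosome 2 at 84765387 to 84775444. Its counts were low, at 103, 183, 69 and 123 in Sham 1 to 4 and 294, 184 and 488 in pMCAO 1 to 3. After scaling these were 5.29, 7.87, 3.48 and 3.38 CPM against 25.1, 8.66 and 27.4 CPM. The groups did not overlap, but pMCAO 2 lay just above Sham 2 and far below the other pMCAO libraries. The means were 5.005 ± 2.10 and 20.4 ± 10.2 CPM, with the largest log2 change of the 9 genes (2.02, SE 0.44, adjusted p = 0.0786 by edgeR). Without pMCAO 2 it was 2.39 (SE 0.38) and passed, with an adjusted p of 0.0215 by edgeR, as did C1qa (-1.20, adjusted p = 0.0332) and 0.581% of all genes. Scaling on the pan-macrophage genes gave 2.42 (adjusted p = 0.0328), where 0.697% of all genes passed, and Serping1 also passed among genes of at least 5 CPM, with 0.647% of them. Over all settings its adjusted p ran from 0.00089 to 0.916, and that of C1qa from 0.00281 to 0.817. The authors' deposited table gives 1.74 with an FDR of 0.160.

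Fibroblast markers were high in the same libraries as Serping1. In both groups the library with the most Serping1 had the highest summed fibroblast markers, but pMCAO 2 had a lower sum than Sham 2 (107 against 170.3 CPM) and slightly more Serping1 (8.66 against 7.87 CPM). As a percentage of those summed markers Serping1 was at 8.96, 4.62, 5.88 and 4.77 in Sham 1 to 4 and at 5.29, 8.08 and 5.09 in pMCAO 1 to 3. The means of 6.06% ± 2.01 and 6.15% ± 1.67 differed by less than the spread between libraries. A stromal score, the mean log2 level over markers of fibroblasts and of blood endothelium less its sham mean, was then added to the fit. The Serping1 log2 change was 0.51 (SE 0.62, adjusted p = 0.916), and 0% of all genes passed. The score ran from -0.46 to 0.83 in the sham group and from 0.70 to 1.73 in the pMCAO group, so it partly follows the grouping. The part of fibroblast RNA in the Serping1 level was not tested. C3 was at 33.97% to 109% of the fibroblast sum for sham and at 16.2%, 56.9% and 35.8% in pMCAO 1 to 3. With the score in the fit the log2 change of C3 was 0.75 (SE 0.61), and those of C1qa, C1qb and C1qc were -0.73 (SE 0.34), -1.10 (SE 0.40) and -0.89 (SE 0.38).

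**Figure D3:**
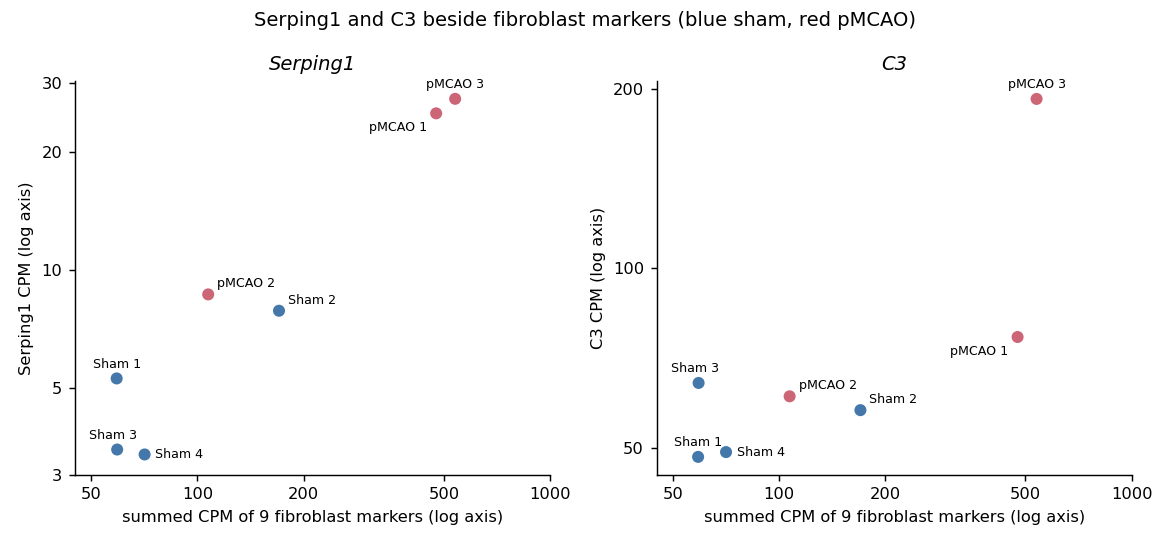
Serping1 (left) and C3 (right) in CPM against the summed CPM of 9 fibroblast markers, both on log axes, one point per library (blue sham, red pMCAO). Serping1 and the markers are highest in pMCAO 1 and pMCAO 3. C3 is highest in pMCAO 3, at 192 CPM, with pMCAO 1 at 76.7 CPM above the sham libraries and pMCAO 2 within their range.

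Cd55, decay-accelerating factor, dissociates C3 convertases on the cell surface. It lies on chromosome 1 at 130439027 to 130462744, and the antisense gene Gm16083 shares exon bases with it. Levels were 40.5, 60.9, 35.1 and 25.4 CPM in Sham 1 to 4 and 51.9, 74.2 and 73.2 CPM in pMCAO 1 to 3. Sham 2 lay above pMCAO 1, so the groups overlapped, and the means were 40.5 ± 15.0 and 66.4 ± 12.6 CPM (log2 change 0.72, SE 0.27, adjusted p = 0.271 by edgeR). The authors' deposited table gives a log2 fold change of 0.04 with an FDR of 0.957, the widest gap between that table and the values here among the 9 genes. The sources used here do not state the model behind the deposited fold changes, and both sets of values need not estimate the same contrast.

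Cd59a, which blocks assembly of the membrane attack pore, lies on chromosome 2 at 104095801 to 104115354. It was at 6.77, 5.33, 7.82 and 10.4 CPM in Sham 1 to 4 and at 12.9, 21.05 and 9.59 CPM in pMCAO 1 to 3. Here pMCAO 2 was the highest library and pMCAO 3 lay within the sham range. The means of 7.59 ± 2.16 and 14.5 ± 5.90 CPM gave a log2 change of 0.93 (SE 0.37, adjusted p = 0.295 by edgeR). Without pMCAO 2 the log2 change was 0.57, and with the stromal score in the fit 1.76 (SE 0.56). Over all settings its adjusted p ran from 0.121 to 0.811. Cd55 and Cd59a have the near copies Cd55b and Cd59b, so their counts are uncertain. The near copies were not among the listed genes and were not analysed here. The library pMCAO 2 also had the highest sum of large peritoneal macrophage markers (5 of 6 measured, Gata6 not listed, Selp at 0 in a library). The sum was 93.6 CPM there, against 23.3 to 37.6 CPM in sham libraries and 57.0 and 43.96 CPM in pMCAO 1 and 3. Most of it came from Prg4 (48.0 CPM) and F5 (30.4 CPM), and Selp (2.02 CPM) was also above its sham range. Icam2, at 3.34 CPM, lay below its sham range of 3.68 to 10.7 CPM, and Garnl3 (9.84 CPM) lay within its own. The part of such cells in the Cd59a level was not tested.

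C3ar1, the receptor for C3a, lies on chromosome 6 at 122847138 to 122856161. It was at 619, 763, 753 and 808 CPM in Sham 1 to 4 and at 683, 809.8 and 1024 CPM in pMCAO 1 to 3. The groups overlapped, and only pMCAO 3 lay clearly above the sham range. The means were 736 ± 81.7 and 839 ± 172 CPM, a log2 change of 0.19 (SE 0.18, adjusted p = 0.687 by edgeR), and without pMCAO 3 it was 0.02 (SE 0.17). The receptor thus differed by less than the spread between pMCAO libraries.

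Per kb of exon, the order of levels in sham libraries was C1qb (2872 ± 595 CPM per kb), C1qc (905 ± 204), C1qa (525 ± 99.7), C3ar1 (171 ± 18.98), Cfp (123 ± 9.94), C3 (10.7 ± 1.47), Cd55 (8.35 ± 3.09), Cd59a (4.19 ± 1.19) and Serping1 (2.15 ± 0.904). Neighbours from C1qb to C3 did not overlap across sham libraries. C3 and Cd55 did, as did Cd55 and Cd59a, and Cd59a and Serping1. After pMCAO the levels were 1513 ± 498, 529 ± 131 and 268 ± 73.9 CPM per kb for C1qb, C1qc and C1qa. C3ar1 was at 195 ± 40.0, Cfp at 64.7 ± 27.4, C3 at 21.4 ± 13.95, Cd55 at 13.7 ± 2.60, Serping1 at 8.77 ± 4.39 and Cd59a at 8.01 ± 3.26 CPM per kb. Serping1 and Cd59a thus stood in the reverse order, within overlapping values.

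The rest of the complement system was described from lists by role. Of 50 other complement genes, 28 were measured, with higher means in 12 and lower in 16. Their median log2 change of -0.02 equalled that over all genes. Scaling on pan-macrophage genes, which moved the median of all genes to 0.33, gave 22 higher and 6 lower. By edgeR 0 of the 28 passed over all genes, and 8 had an unadjusted p under 0.05 (6 higher, 2 lower), against 13.4% of all genes (6.97% higher, 6.47% lower). DESeq2 called 1 (Cd46), against 3.07% of the genes it tested, and limma-voom with sample quality weights called 2, Cd46 among them, against 4.75%. The groups did not overlap for 4 genes, all higher after pMCAO, with C7, Cd46 and Cr1l among them, against 5.99% of all genes on that side.

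Of the classical pathway 5 of 7 listed genes were measured, and 0 passed. C4b, the fourth component, was at 153 ± 29.2 and 114 ± 16.2 CPM (log2 change -0.43, SE 0.19), and its counts are uncertain because C4a is a near copy. C1s1, a protease carried by C1q with the near copy C1s2, was at 0.385 to 1.59 CPM in sham libraries and at 9.66, 0.330 and 8.41 CPM in pMCAO 1, 2 and 3. It was thus high in the libraries with high fibroblast markers and Serping1, and without pMCAO 2 it passed by edgeR (log2 change 3.11, adjusted p = 0.0402), its adjusted p running from 0.0402 to 0.994 over the settings. With the stromal score in the fit the log2 change was 0.13, with a wide error (SE 1.89). The part of fibroblast RNA in the C1s1 level was not tested. Of the lectin pathway 3 of 8 genes were measured, among them Masp1 (1.29 ± 0.906 and 0.358 ± 0.199 CPM) and Colec10 (3.10 ± 1.96 and 10.2 ± 12.97 CPM). Factor D (Cfd), the protease of the alternative pathway that adipocytes secrete, was at 0.301 to 2.31 CPM in sham libraries and at 4.02, 58.3 and 0.561 CPM in pMCAO 1, 2 and 3, so a single library set its mean. Of 4 adipocyte markers 0 were listed. Every listed gene was above 0.5 CPM in at least 4 libraries, so markers expressed in a single library would be missing. The part of adipocyte RNA in the Cfd level was not tested. Factor B was not among the listed genes, so it was not analysed here.

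Among membrane regulators Cd46 was at 23.1 ± 5.69 and 40.6 ± 3.95 CPM (log2 change 0.82, SE 0.24, adjusted p = 0.185 by edgeR). Cr1l, the rodent regulator Crry, was at 127 ± 10.5 and 163 ± 10.2 CPM (log2 change 0.36, SE 0.16, adjusted p = 0.345). Of the late components 3 of 7 were measured. C7, part of the membrane attack complex, was at 0.477 ± 0.248 and 2.68 ± 0.986 CPM, and C6 at 17.9 ± 3.23 and 18.8 ± 2.98 CPM. Clusterin (Clu), a fluid-phase regulator, was at 3.69 ± 3.68 and 5.32 ± 3.16 CPM.

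Of 13 receptor genes 12 were measured, 11 of them with lower means, with a median log2 change of -0.18 and 0 past the test. Scaling on pan-macrophage genes, which shifted all genes upward, gave 8 higher and 4 lower. Calr, encoding calreticulin, which can bind C1q at the cell surface, was at 283 ± 58.8 and 187 ± 62.3 CPM (log2 change -0.60, SE 0.23, adjusted p = 0.282 by edgeR). C5ar2, the second C5a receptor, was at 85.4 ± 10.05 and 68.2 ± 5.12 CPM. Of 25 further genes with a C1q-type domain 10 were measured, 7 with higher means and 0 past the test, among them Col10a1 (4.76 ± 1.58 and 9.56 ± 5.27 CPM) and Mmrn2 of endothelium (5.58 ± 4.32 and 10.1 ± 1.33 CPM).

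**Figure D4:**
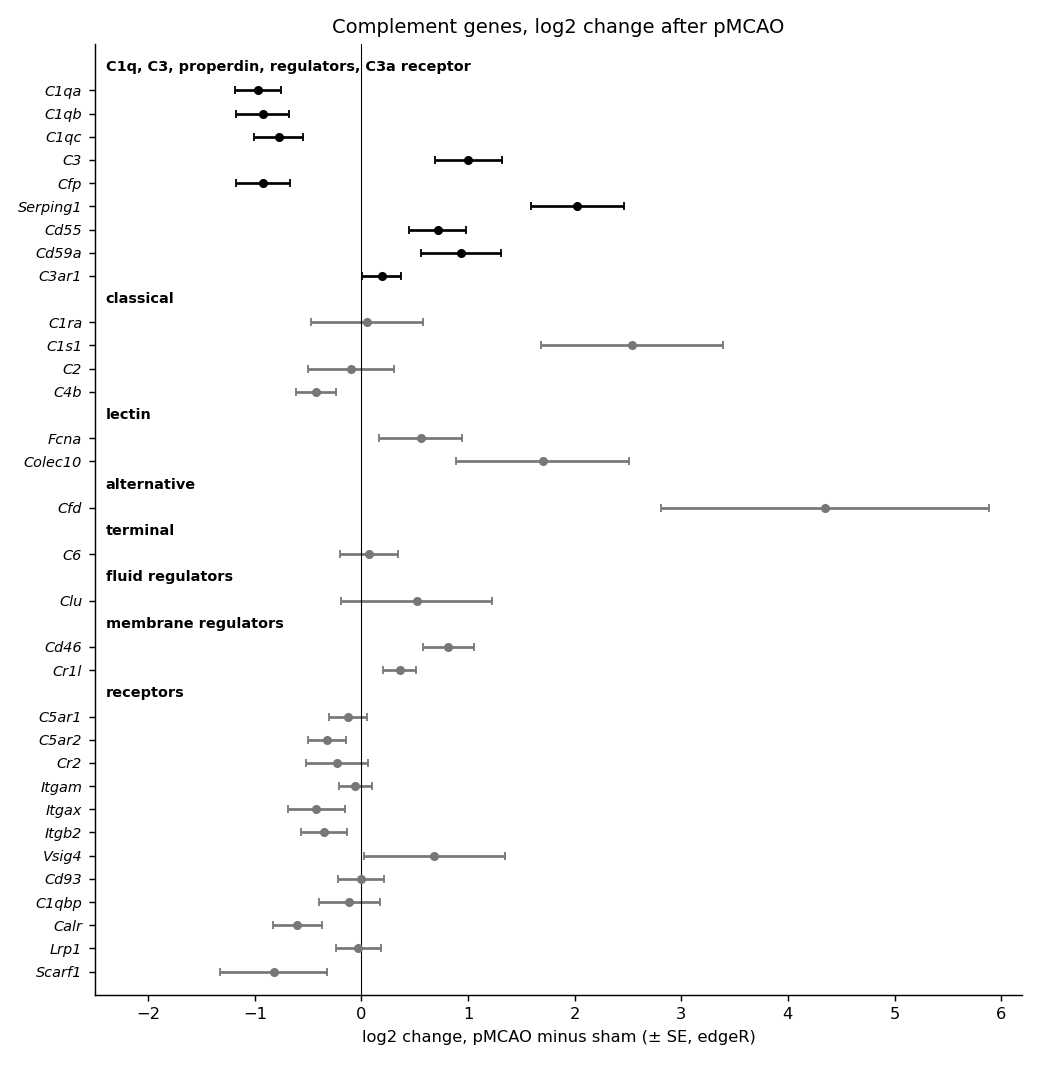
Log2 change (pMCAO minus sham, points) with its SE (bars) from the edgeR fit for the 9 genes (black) and for other measured complement genes of at least 5 CPM in either group (grey, 1 gene not shown), by role. The C1q genes and Cfp lie between -0.97 and -0.78, and the receptors other than Vsig4 and C3ar1 lie at or below 0 with TMM scaling, while 8 of 12 lie above 0 under the pan-macrophage scaling, which raised the median of all genes to 0.33.

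Across 19 other settings the direction of 8 of the 9 genes did not turn. The exception was C3ar1, at -0.04 with sample quality weights. The setting without an expression filter held the same 17209 genes, so it repeated the main fit and could not differ. Over these settings C1qa ranged from -1.20 to -0.62, C1qb from -1.10 to -0.59, C1qc from -0.92 to -0.42 and Cfp from -1.21 to -0.62 on the log2 scale. C3 ranged from 0.33 to 1.44, Serping1 from 0.51 to 2.42, Cd55 from 0.31 to 1.08 and Cd59a from 0.57 to 1.76. Since 5 of the genes had separate groups, the removal of single libraries had no way to turn them.

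**Figure D5:**
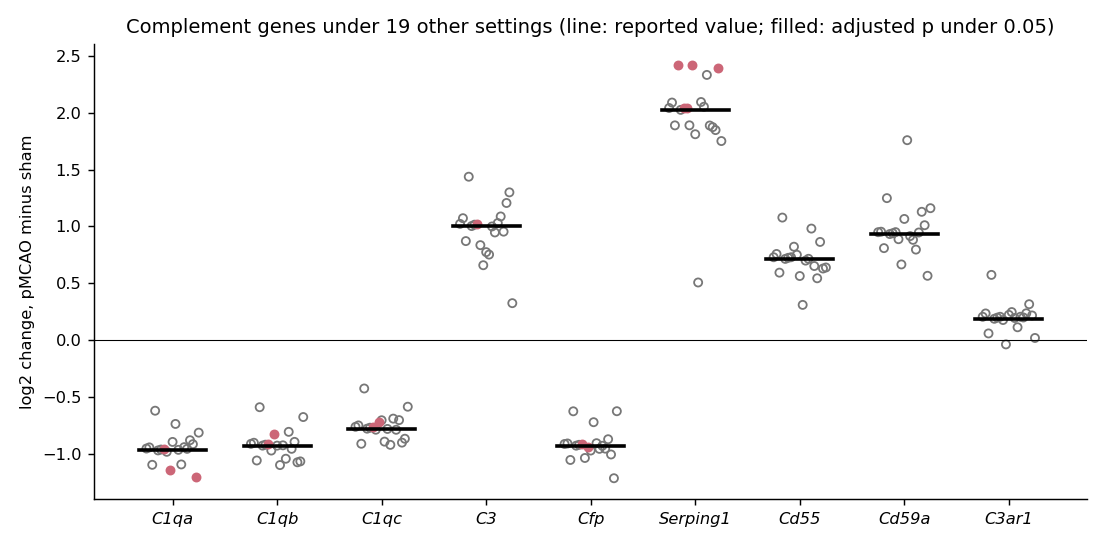
Log2 change of each complement gene (vertical axis, pMCAO minus sham) under 19 other settings (circles, filled where the adjusted p was under 0.05), with the reported value as a line. The low circles of C3 at 0.33 and of Serping1 at 0.51 are the settings without pMCAO 3 and with the stromal marker score.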

How the data were processed

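RNA-seq libraries of 4 sham and 3 pMCAO samples were grouped by the titles in the labels. The authors made the deposited counts per gene, with STAR, featureCounts and limma named per the submitters' processing notes for GRCm38 (mm10). The sources used here give no versions, strand setting or annotation release. The deposited CPM values equal the count over the library total to within 0.0005, and every listed gene is above 0.5 CPM in at least 4 libraries, so genes expressed after pMCAO alone would be missing. The log2 fold changes, p-values and FDR of the deposited table are the authors'.

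Counts were tested with edgeR 4.0.16 in R 4.3.3 (quasi-likelihood F test, robust, TMM factors, filterByExpr, after which 17209 genes remained, group as the only term), two-sided, with Benjamini-Hochberg adjustment over all genes and a threshold of 0.05. The SE is the log2 change divided by the root of F. The biological coefficient of variation was 43.6%. A count of 3 corresponds to 0.0825 to 0.256 CPM across libraries, for counting error only. Alternatives included DESeq2 1.42.0 and limma 3.58.1.

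Positions and exon lengths were taken from GENCODE M21 (GRCm38), where 99.4% of the listed identifiers matched by chromosome. Named genes were the 9 members, the 2 genes of smallest p in each complement list, and the 5 nearest profiles to C1q and to C3. Cxadr and Gcnt1 are described from the last. The result of 1 complement gene is not reported here. The members and lists were chosen with earlier results of these data known.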

Additional observations from a re-analysis of the deposited data

How the results depend on the processing

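Over all genes 17 passed (12 higher, 5 lower). The count was 34 with upper-quartile factors, 35 with limma-voom, 35 after thinning to the smallest library, 75 over genes of at least 5 CPM, 476 with DESeq2 and 818 with sample quality weights. With the stromal score in the fit it was 0 (unadjusted p under 0.05 in edgeR: 1047). Without scaling factors it was 29 (14 higher, 15 lower; median of all genes -0.14) and with scaling on pan-macrophage genes 120 (118 higher, 2 lower; median 0.33). Leaving out a library gave 0 to 100, namely 47 when Sham 1 or Sham 2 was removed, 9 for Sham 4, 0 for pMCAO 1 (unadjusted p under 0.05 in edgeR: 1987), 100 for pMCAO 2 and 7 for pMCAO 3. Against 0 of the 9 complement genes, 1 passed with scaling on pan-macrophage genes (Serping1), 1 over genes of at least 5 CPM (Serping1), 6 with DESeq2, 5 with sample quality weights and 0 to 2 when a library was left out. Of the other complement genes 1 passed with DESeq2, 2 with sample quality weights and 0 to 1 when a library was left out. The direction turned for C3ar1 (-0.0357) with sample quality weights, Colec10 (-0.20 without pMCAO 1, up to 2.23 without pMCAO 2), and Clu (-2.01) with the stromal score. It also turned for C5ar2 (0.0439) scaled on pan-macrophage genes and for C6 without scaling factors (-0.0550), with the stromal score (-0.16) and when a library was left out (-0.0639 to 0.16). The cause was not tested.

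The labels do not state that replicate numbers pair the libraries. Deviations from the group mean of same-numbered libraries correlated at -0.08, -0.01 and 0.10 across genes. Pairs with unlike numbers ran from -0.06 to 0.08. With so few libraries in each group, these values cannot decide whether libraries were paired. With the replicate number as a block 21 genes passed and 0 of the 9 complement genes, with log2 changes of -0.89 for C1qa and 1.81 for Serping1. No library duplicated another of its group.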
